A study of Mus musculus with 12 samples.

Results

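Costimulatory receptors and activation markers of the T-cell surface were followed on 12 arrays of mouse thymocytes. The group was set by symbol as 8 genes, *Cd69*, *Tnfrsf4*, *Tnfrsf9*, *Cd28*, *Ctla4*, *Icos*, *Cd83* and *Cd40lg*, and every probe set (the set of short probes that measures a transcript on these arrays) to which the platform annotation gives one of these symbols and no other was taken. This found 9 of 12488 probe sets, which cover 7 of the 8 genes, with 2 probe sets each for *Tnfrsf9* and *Cd83* and 1 for each other gene. *Cd69* was not analysed here. Thymocytes came from 6 female C57Bl/6 x 129Sv (F1) mice aged 6 to 7 weeks, of which 2 were *Med23flox/flox;Lck-Cre* (MED23 null), 2 were *Med23+/+;Lck-Cre* (*Lck-Cre*) and 2 were *Med23flox/flox*. The floxed allele has LoxP sites around an internal block of *Med23* exons, and Cre under the *Lck* promoter acts in the T lineage. MED23 null mice thus carried both the transgene and the floxed alleles, and each control genotype carried one of them. From every mouse, one sample of cells was stimulated for 3 h on plate-bound αCD3 after 4 h of rest and another was left unstimulated (mock), and each sample was run on its own array. They were unsorted thymocytes, so that fewer cells of a type and less RNA per cell cannot be told apart in any value below.

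αCD3 antibody binds the CD3 chains of the T-cell receptor complex and stands in for antigen. A T cell that receives this signal also reads a second set of receptors. CD28 and ICOS bind B7 family ligands on antigen-presenting cells and add to the signal, whereas CTLA-4 competes with CD28 for the same ligands and restrains the response. OX40 (*Tnfrsf4*) and 4-1BB (*Tnfrsf9*) belong to the TNF receptor superfamily, appear on activated T cells and pass their signal to TRAF adaptors. CD40 ligand (*Cd40lg*) is a TNF family protein that T cells show to B cells and other antigen-presenting cells, and CD83 is an immunoglobulin family protein of mature dendritic cells and activated lymphocytes. In the thymus, signals of this kind accompany the selection of thymocytes on self-antigen.

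Values are linear MAS5 signals, whose levels cannot be compared between probe sets. Log2 differences were taken after 50 was added to each signal, which shrinks the change of dim probe sets, and were tested with limma over the 9478 probe sets whose mean signal reached 100 in some genotype and treatment. A difference was called at an adjusted p under 0.05. Of the 9 probe sets of the group, 8 passed this filter, and *Cd40lg* did not. The *Med23* probe set itself gave 252 and 239 in MED23 null cells after αCD3 and 268 and 207 after mock treatment, against 309.9 to 489 and 288 to 424 in the controls. It lay lower in the null cells on both kinds of array, but neither difference was called, and whether its probes lie in the deleted exons is not known. The αCD3 array of *Med23flox/flox* replicate 1 stood apart from the others, with a lower quartile of signals of 85.2, against 50 to 58.2 on the other 11 arrays. The actin controls, whose 3′ over 5′ ratio grows as RNA degrades, gave 1.90 and 1.61 for null cells after αCD3, against 1.35 to 1.41 for control cells, while mock arrays gave 1.44 and 1.63 against 1.35 to 1.60. The same ratio of GAPDH after αCD3 was 0.636 and 0.766 in null and 0.599 to 0.648 in control cells, which overlapped. The part of these ratios in the αCD3 differences was not tested.

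One *Tnfrsf9* probe set, 103509_at, gave the only called induction of the group, in control cells, and both MED23 null mice had a lower αCD3 to mock ratio there than every control, a difference that did not pass the test. It passed the filter only through the αCD3 groups of the controls, with mean signals of 136 in *Lck-Cre* and 128 in *Med23flox/flox* mice, so it had to be higher there than in the other groups. It gave 44.2 and 76.5 after αCD3 in the MED23 null mice, 169 and 104 in the *Lck-Cre* mice and 81.3 and 175 in the *Med23flox/flox* mice. After mock treatment it gave 13.3 and 14.2 in MED23 null, 19.2 and 10.9 in *Lck-Cre* and 10.4 and 28.3 in *Med23flox/flox* mice. All 6 mice were higher after αCD3, and both null mice lay below all 4 controls after αCD3 but among them after mock treatment.

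Within each mouse, the αCD3 signal of this probe set was 3.32 and 5.39 times the mock signal in MED23 null mice, against 8.79 and 9.54 times in *Lck-Cre* and 7.82 and 6.19 times in *Med23flox/flox* mice. The mean ratio was 4.36 ± 1.46 (SD, n = 2) in null and 8.08 ± 1.45 (SD, n = 4) in control mice, and the groups did not overlap. The mock signals are far below 100, so the exact size of these ratios cannot be read. On the log2 scale the induction was 0.78 (standard error 0.20, limma, adjusted p = 0.613) in null cells and 1.41 (standard error 0.14, adjusted p = 0.0259) in control cells, where it was called. In control cells it was 1 of 14 probe sets called, all of them higher, which is 0.148% of those tested. The call was lost with each of the 6 mice left out in turn, at limma adjusted p = 0.0570 to 0.226, and the induction was 1.51 (adjusted p = 0.0570) without *Med23flox/flox* replicate 1, whose array stood apart. The difference in induction was -0.63 (standard error 0.25, 95% interval -1.23 to -0.04, limma, adjusted p = 0.957), with -0.72 against *Lck-Cre* and -0.55 against *Med23flox/flox* alone (adjusted p = 1.00 and 0.791). The αCD3 signal itself averaged 60.4 ± 22.8 (SD, n = 2) in null and 132 ± 46.8 (SD, n = 4) in control cells, with a log2 difference of -0.70 (standard error 0.28, limma, adjusted p = 0.783) that was -0.75 against *Lck-Cre* and -0.66 against *Med23flox/flox*. In mock-treated cells the log2 difference was -0.07.

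The other *Tnfrsf9* probe set, 97683_at, did not follow the first. It gave 26.9 and 136 after αCD3 and 84.2 and 203 after mock treatment in MED23 null mice. The αCD3 and mock signals were 82.0 and 151 in *Lck-Cre* replicate 1, 176 and 109.7 in *Lck-Cre* replicate 2, 42.2 and 47.0 in *Med23flox/flox* replicate 1, and 47.0 and 99.4 in *Med23flox/flox* replicate 2. It was thus lower after αCD3 in 5 of 6 mice, the exception being *Lck-Cre* replicate 2, and null and control mice overlapped in each treatment. Its log2 induction was -0.63 in null and -0.20 in control cells (standard errors 0.30 and 0.21, limma, adjusted p = 0.993 and 0.834). Over the 12 arrays the log2 signals of the pair had a correlation of -0.20, so a statement on *Tnfrsf9* holds for 103509_at alone.

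**Figure D1:**
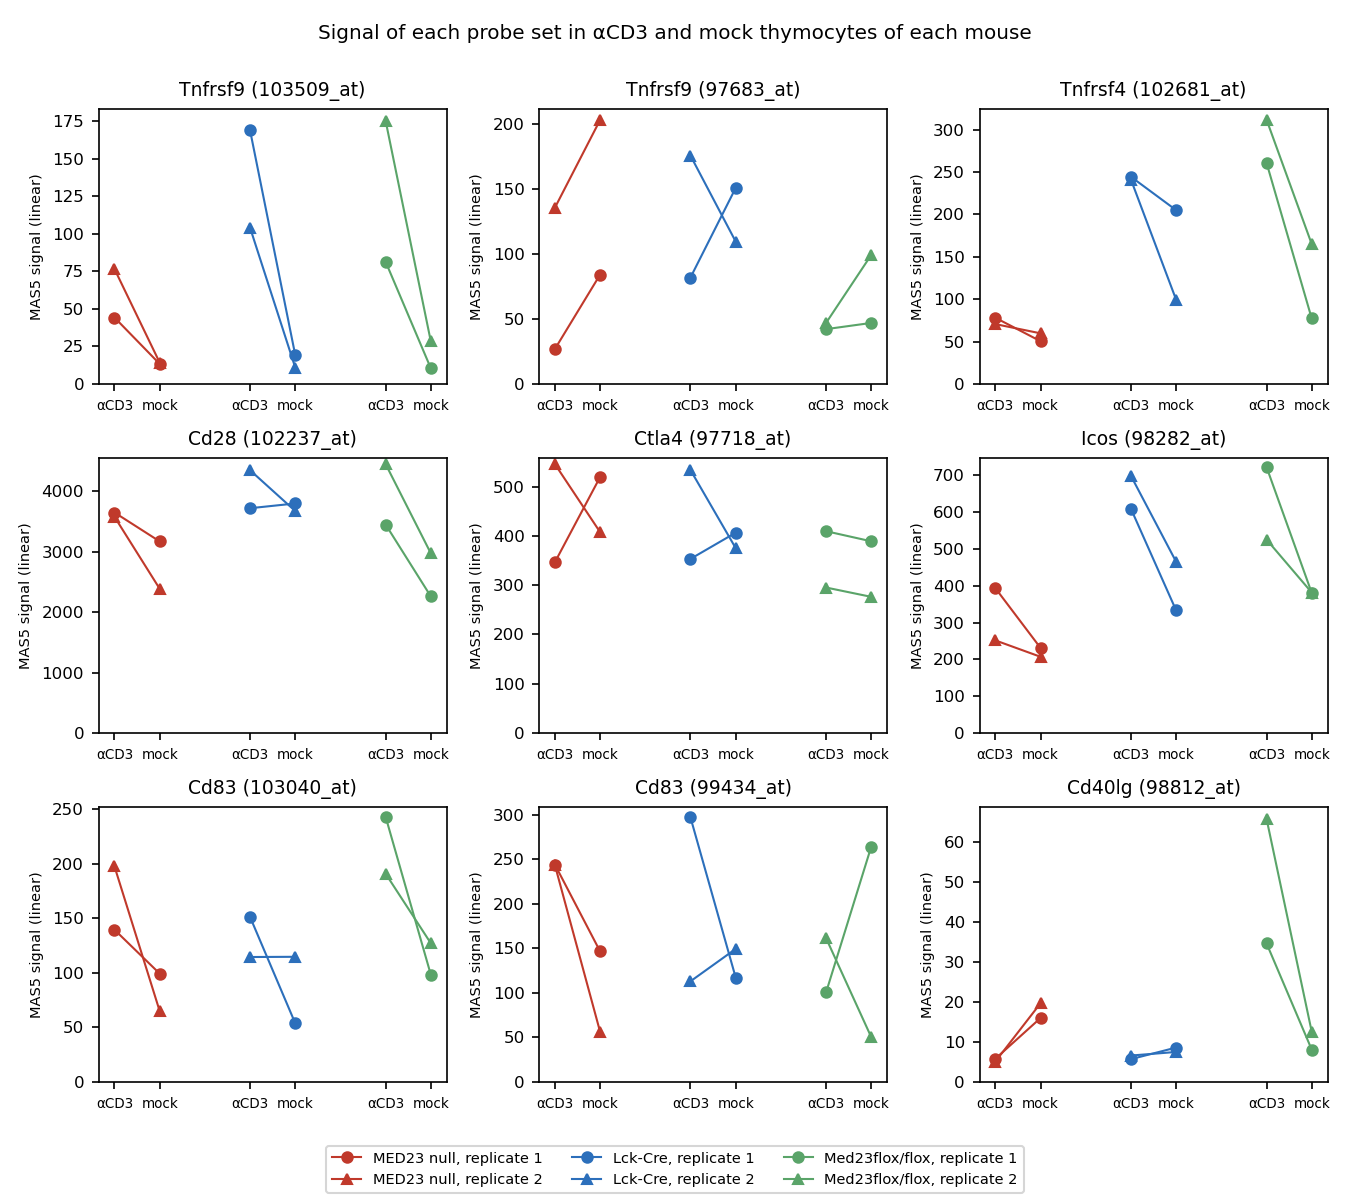
MAS5 signal (linear axis from 0) of each of the 9 probe sets in each mouse, with αCD3 left of mock and a line joining both arrays of a mouse. Red marks MED23 null, blue *Lck-Cre* and green *Med23flox/flox* mice, with circles for replicate 1 and triangles for replicate 2. *Tnfrsf9* (103509_at), *Tnfrsf4* and *Icos* are higher after αCD3 in all 6 mice, and after αCD3 both null mice lie below all controls.

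The promoters of *Tnfrsf9* and *Tnfrsf4* are shown because these TNF receptor genes had the largest mean αCD3 to mock ratios in control cells among the probe sets higher in all 6 mice. Of the 7 measured genes, *Tnfrsf9* (2 start sites), *Tnfrsf4* and *Ctla4* had a promoter sequence in the tables used. Sequences are from RefSeq (GRCm38.p6), plus strand, 5′ to 3′, from 250 bases before to 50 bases after a start site. Capitals mark matches on either strand to TTTCC, the core that NFAT factors bind, and to TGANTCA, the AP-1 site.

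Tnfrsf9, first start site, chr4:150919905-150920204: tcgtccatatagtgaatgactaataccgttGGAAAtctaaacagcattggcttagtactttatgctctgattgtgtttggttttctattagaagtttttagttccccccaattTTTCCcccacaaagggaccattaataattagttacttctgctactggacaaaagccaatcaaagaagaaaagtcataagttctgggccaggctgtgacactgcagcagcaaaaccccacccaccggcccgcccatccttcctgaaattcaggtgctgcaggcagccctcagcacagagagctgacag
Tnfrsf9, second start site, chr4:150927749-150928048: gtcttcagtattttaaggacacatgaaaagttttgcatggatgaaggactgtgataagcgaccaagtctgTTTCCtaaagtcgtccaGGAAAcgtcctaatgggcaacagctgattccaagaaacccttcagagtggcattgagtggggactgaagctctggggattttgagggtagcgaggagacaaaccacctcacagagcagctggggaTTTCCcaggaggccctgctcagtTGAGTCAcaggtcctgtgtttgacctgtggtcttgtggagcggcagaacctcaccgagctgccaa
Tnfrsf4, chr4:156013445-156013744: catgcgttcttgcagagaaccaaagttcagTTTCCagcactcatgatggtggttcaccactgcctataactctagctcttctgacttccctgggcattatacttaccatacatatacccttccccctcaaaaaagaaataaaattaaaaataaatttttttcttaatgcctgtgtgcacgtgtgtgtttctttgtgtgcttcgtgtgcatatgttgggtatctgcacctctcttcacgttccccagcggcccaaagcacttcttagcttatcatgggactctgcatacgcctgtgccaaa

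NFAT, AP-1, NF-kB and EGR factors are known to act downstream of the T-cell receptor. TTTCC was found in all 4 promoter sequences of the group, but 61.3% of 32851 mouse promoter sequences of the same length hold it. The second *Tnfrsf9* start site has 3 TTTCC matches and 1 AP-1 match, at -15 to -9 from the start, and 7.81% of all promoters hold an AP-1 match. NF-kB (GGGAN followed directly by TTTCC, in 0.411% of promoters) and EGR (GCGTGGGCG, in 0.612%) had no match in these windows. Both are narrow spellings, and wider forms of the NF-kB site, which differ from it at single letters, were not searched. Such a form, gggga followed directly by TTTCC, can be read in the second *Tnfrsf9* window, where only TTTCC is marked. The lack of a match therefore does not mean that these windows hold no NF-kB site. A match is a description of the letters and not of binding.

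*Tnfrsf4*, which encodes OX40, had the largest log2 shortfall in MED23 null cells after αCD3 among the tested probe sets of the group. It gave 78.1 and 70.6 after αCD3 in the MED23 null mice, against 245 and 241 in *Lck-Cre* and 261 and 312 in *Med23flox/flox* mice. After mock treatment it gave 50.4 and 59.7 in the null mice, against 205 and 99.4 in *Lck-Cre* and 77.3 and 165 in *Med23flox/flox* mice. This probe set also passed the filter only through control groups. The null mice lay below every control in both treatments, and their αCD3 signals lay no more than 1 signal unit above the lowest mock signal of a control.

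After αCD3 the mean was 74.4 ± 5.31 (SD, n = 2) in null and 265 ± 32.7 (SD, n = 4) in control cells, a log2 difference of -1.33 (standard error 0.18, 95% interval -1.75 to -0.92). Its unadjusted p of 0.00013 was the lowest of the 9478 probe sets in this comparison, but the adjusted p of 0.394 (limma) did not pass. The rank is a description, since *Tnfrsf4* passed the filter only through control groups. With a variance trend in limma it was not the lowest (adjusted p = 0.190, against 0.012 for the lowest of all probe sets). Against *Lck-Cre* alone the difference was -1.24 and against *Med23flox/flox* alone -1.43 (standard error 0.20 each, limma, adjusted p = 0.612 and 0.455). Without *Med23flox/flox* replicate 1 it was -1.34 (limma, adjusted p = 0.227), and over all settings tried the adjusted p ran from 0.190 to 0.865. In mock-treated cells the mean was 55.1 ± 6.58 (SD, n = 2) in null and 137 ± 58.9 (SD, n = 4) in control cells (log2 difference -0.78, standard error 0.30, limma, adjusted p = 0.641), with -0.90 against *Lck-Cre* and -0.66 against *Med23flox/flox*.

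All 6 mice had more *Tnfrsf4* signal after αCD3. The ratio of αCD3 to mock signal was 1.55 and 1.18 in MED23 null, 1.19 and 2.43 in *Lck-Cre* and 3.38 and 1.89 in *Med23flox/flox* mice. The null mice therefore overlapped the *Lck-Cre* mice, whose replicate 1 started from the highest mock signal, and lay below both *Med23flox/flox* mice. Induction was 0.24 (standard error 0.27, limma, adjusted p = 0.999) in null and 0.80 (standard error 0.19, adjusted p = 0.266) in control cells. The difference in induction was -0.56 (standard error 0.32, 95% interval -1.33 to 0.22, limma, adjusted p = 1.00), with -0.34 against *Lck-Cre* and -0.78 against *Med23flox/flox*. In order of mean signal the conditions ran null mock, null αCD3, *Med23flox/flox* mock, *Lck-Cre* mock, *Lck-Cre* αCD3 and *Med23flox/flox* αCD3, and only the second with the third and the third with the fourth overlapped among neighbours.

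*Icos*, the CD28 relative of activated T cells, was also lower in MED23 null cells in both treatments. It gave 394 and 252 after αCD3 in the null mice, against 609.6 and 699 in *Lck-Cre* and 723 and 526 in *Med23flox/flox* mice. After mock treatment it gave 231 and 207 in the null mice, against 333 and 466 in *Lck-Cre* and 381 and 382 in *Med23flox/flox* mice. No null mouse reached a control mouse of the same treatment, and null cells after αCD3 overlapped with mock-treated controls.

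The mean *Icos* signal after αCD3 was 323 ± 100 (SD, n = 2) in null and 639 ± 90.1 (SD, n = 4) in control cells (log2 difference -0.90, standard error 0.23, limma, adjusted p = 0.582), with -0.94 against *Lck-Cre* and -0.87 against *Med23flox/flox*. In mock-treated cells it was 219 ± 17.0 (SD, n = 2) in null and 390.4 ± 55.0 (SD, n = 4) in control cells (log2 difference -0.70, standard error 0.17, limma, adjusted p = 0.389), with -0.73 and -0.68 against the same genotypes. Neither difference was called, and after αCD3 it was -0.85 (limma, adjusted p = 0.473) without *Med23flox/flox* replicate 1. The αCD3 to mock ratio was 1.70 and 1.22 in null, 1.83 and 1.5 in *Lck-Cre* and 1.90 and 1.38 in *Med23flox/flox* mice. These ratios overlapped, unlike the levels, and the difference in induction was -0.20 (standard error 0.24, 95% interval -0.77 to 0.37, limma, adjusted p = 1.00). Induction itself was 0.44 in null and 0.65 in control cells (standard errors 0.20 and 0.14, limma, adjusted p = 0.953 and 0.218).

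The lower *Tnfrsf4* and *Icos* signals stood beside lower summed signals of maturity markers. The summed signal of 9 of 12 listed markers of mature single positive thymocytes was 6769 to 7316 after αCD3 and 6376 to 6697 after mock treatment in MED23 null mice, against 9768 to 11840 and 10312 to 14277 in control mice. That list holds *Cd52*, which the study picked out as lower in null cells from its arrays of mock-treated thymocytes. It also holds *Klf2*, which the study found lower in isolated CD4 single positive thymocytes of this genotype. The lower sum of the list is therefore partly built in. By flow cytometry the study found normal proportions of double positive and single positive thymocytes in efficiently deleted mice of this genotype. The sums here are of RNA signals and do not count cells. The sum of 10 of 11 general thymocyte markers was 87055 to 87237 after αCD3 and 83887 to 89176 after mock treatment in null mice, against 93277 to 97279 and 103060 to 108080 in controls. Both sums were lower in every null mouse, but not every marker was. Of the mature markers, 1 of 9 had a log2 difference above 0 in each treatment. Of the thymocyte markers, 3 of 10 did after αCD3 and 2 of 10 after mock treatment. *Cd52* and *Gimap4* were the brightest mature markers (means of 3182 and 2443 over all arrays). *Rag1*, *Dntt* and *Cd8b1* were the brightest thymocyte markers (27282, 20835 and 19972). The part of these markers in the *Tnfrsf4* and *Icos* results was not tested.

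Sums for other cells were higher in null mice or overlapped. The sum of 4 of 6 NK and cytotoxic markers was 3749.6 to 4717 after αCD3 in null mice, against 1704 to 1899.7 in controls, and that of 7 of 8 B cell markers was 8879.6 to 8929.8, against 6558 to 8112. *Ncr1*, which defines NK cells, stayed at 6.80 to 48.9 on all arrays, and no listed marker was at 0. The sum of 3 of 5 erythroid markers was 15678 to 38226 after αCD3 in null mice, against 6142 to 15315 in controls, but overlapped after mock treatment (14734 to 37134 in null and 6258 to 16619 in control mice). Single genes made up most of these sums, namely *Gzma* (1018 to 4825 over the 12 arrays), *Ighm* (5044 to 7093) and *Hba-a1* (5935 to 37280), while *Klrd1* stayed at 153 to 316 and *Gzmb* at 32.5 to 217. After αCD3, 11 myeloid and dendritic markers (4086 to 4180 and 3479 to 4503) and 5 epithelial markers (228 to 293 and 257 to 367) overlapped between null and control mice. Their part in the results was not tested.

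*Cd28*, the main costimulatory receptor of resting T cells, gave overlapping signals in null and control mice in both treatments. It gave 3649 and 3579 after αCD3 in the MED23 null mice, 3720.2 and 4349 in *Lck-Cre* and 3449.7 and 4450.5 in *Med23flox/flox* mice. After mock treatment it gave 3171 and 2387 in null, 3799 and 3673 in *Lck-Cre* and 2260 and 2973 in *Med23flox/flox* mice. The null mice lay below both *Lck-Cre* mice in each treatment and overlapped with the *Med23flox/flox* mice, so the position of the null cells depended on the control genotype. The mean was 3614 ± 49.8 (SD, n = 2) after αCD3 and 2779 ± 554 (SD, n = 2) after mock treatment in null cells, against 3992 ± 485 and 3176 ± 711 (SD, n = 4) in controls. The log2 difference was -0.13 after αCD3 and -0.18 after mock treatment (standard errors 0.18 and 0.25, limma, adjusted p = 0.969 and 0.896). The ratio of αCD3 to mock signal was 1.15 and 1.5 in null, 0.979 and 1.18 in *Lck-Cre* and 1.53 and 1.5 in *Med23flox/flox* mice, so that 5 of 6 mice were higher after αCD3. The difference in induction was 0.04 (95% interval -0.60 to 0.68).

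*Ctla4*, whose product opposes CD28, was the one tested probe set of the group above every control in mock-treated null cells. After mock treatment it gave 519 and 407 in the MED23 null mice, against 406 and 375 in *Lck-Cre* and 389 and 276 in *Med23flox/flox* mice, with a gap of about 1 signal unit between the lower null mouse and the highest control. After αCD3 it gave 346 and 545 in null, 353 and 533 in *Lck-Cre* and 409 and 295 in *Med23flox/flox* mice, and the groups overlapped. The log2 difference was 0.14 after αCD3 and 0.32 after mock treatment (standard errors 0.27 and 0.20, limma, adjusted p = 0.980 and 0.765). αCD3 moved it in no common direction, with ratios of 0.667 and 1.34 in null, 0.869 and 1.42 in *Lck-Cre* and 1.05 and 1.07 in *Med23flox/flox* mice. All neighbouring conditions of *Ctla4* overlapped when ordered by mean signal.

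*Cd83* has 2 probe sets, and both were higher after αCD3 in both MED23 null mice. For 103040_at the signals were 139 and 197 after αCD3 and 99.2 and 64.9 after mock treatment in null mice. In controls it gave 151 and 114 (*Lck-Cre*) and 243 and 191 (*Med23flox/flox*) after αCD3, and 53.7 and 115 (*Lck-Cre*) and 98.2 and 127 (*Med23flox/flox*) after mock treatment. Ratios were 1.41 and 3.04 in null mice and 0.998 to 2.81 in controls, so the groups overlapped, and *Lck-Cre* replicate 2 was the one mouse with no higher signal after αCD3. Induction was 0.73 in null and 0.59 in control cells (standard errors 0.31 and 0.22, limma, adjusted p = 0.935 and 0.592).

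For the other *Cd83* probe set, 99434_at, the signals were 244 and 244 after αCD3 and 147 and 56.3 after mock treatment in null mice. In controls it gave 297 and 113 (*Lck-Cre*) and 100.6 and 162 (*Med23flox/flox*) after αCD3, and 117 and 149.5 (*Lck-Cre*) and 265 and 50.3 (*Med23flox/flox*) after mock treatment. The 4 controls were divided, with ratios of 2.53, 0.757, 0.380 and 3.21, while both null mice were higher, with ratios of 1.66 and 4.33. Induction was 1.02 in null and 0.19 in control cells (standard errors 0.55 and 0.39, limma, adjusted p = 0.999 and 0.922), and the difference of 0.83 had a 95% interval of -0.77 to 2.42. Over the 12 arrays the log2 signals of both *Cd83* probe sets had a correlation of 0.29, and between null and control cells they differed by -0.02 (103040_at) and 0.51 (99434_at) after αCD3, so they gave no common direction there.

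*Cd40lg* was too dim to be tested with the rest. Its signals were 5.80 and 5.10 after αCD3 and 16 and 19.7 after mock treatment in MED23 null mice. In *Lck-Cre* mice they were 5.70 and 6.60 after αCD3 and 8.60 and 7.50 after mock treatment, and in *Med23flox/flox* mice 34.7 and 65.9 after αCD3 and 8.10 and 12.6 after mock treatment. Only the 2 *Med23flox/flox* mice were higher after αCD3, including the one whose αCD3 array stood apart. With the filter removed, the log2 induction was -0.29 in null and 0.33 in control cells, and null differed from *Med23flox/flox* by -1.01 and from *Lck-Cre* by -0.24 (limma, adjusted p = 0.736 and 1.00). No signal of this probe set reached 100.

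**Figure D2:**
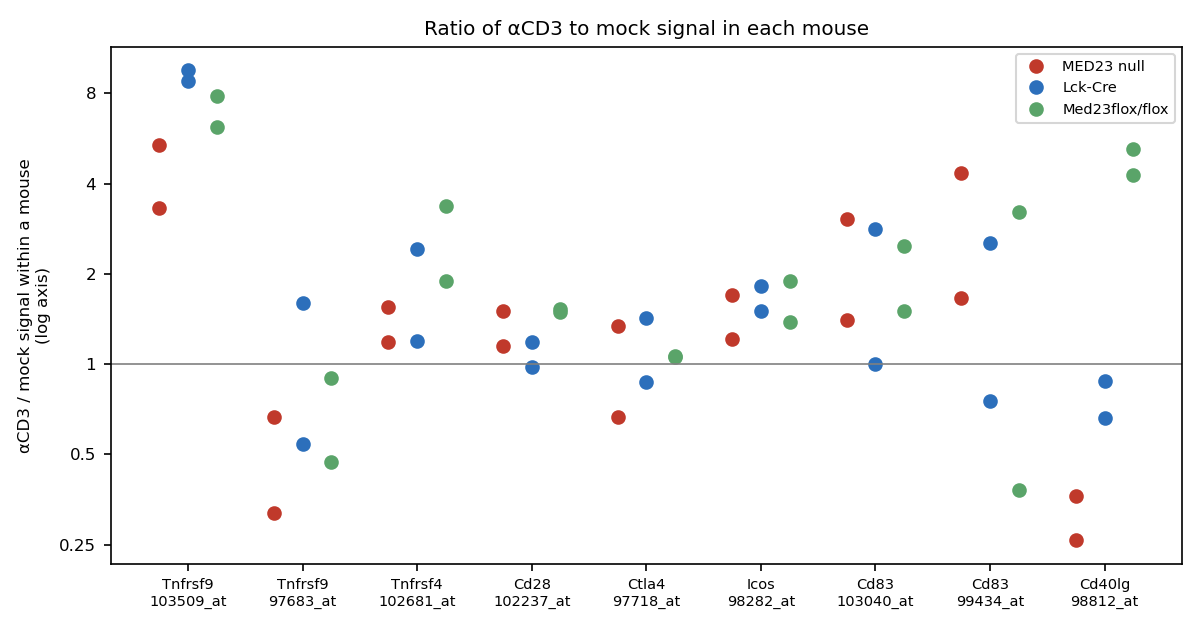
For each mouse (1 point each, log axis), the αCD3 signal divided by the mock signal of the 9 probe sets, with MED23 null in red left of *Lck-Cre* in blue and *Med23flox/flox* in green. For *Tnfrsf9* 103509_at both null mice (3.32 and 5.39) lie below all 4 controls (6.19 to 9.54), whereas for *Icos* the genotypes overlap.

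Of the 8 tested probe sets, *Tnfrsf9* 103509_at and *Tnfrsf4* were kept only through groups where they were high, so the counts that follow are descriptions. Induction was called for 0 of 8 tested probe sets in null cells, where 3 of all 9478 (0.0317%) were called, and for 1 of 8 in control cells, where 14 (0.148%) were. At an unadjusted p under 0.05 the counts were 1 of 8 in null cells (508 of 9478 in all, 5.36%) and 4 of 8 in control cells (737 of 9478, 7.78%), which were *Tnfrsf9* 103509_at, *Icos*, *Tnfrsf4* and *Cd83* 103040_at. The median log2 induction of the 8 was 0.42 in null and 0.47 in control cells, against -0.02 and 0.00 over all probe sets. In both null mice 6 of 8 were higher after αCD3, against 23.2% of all probe sets, and in all 4 control mice 3 of 8, against 9.16%. Those 3, *Tnfrsf9* 103509_at, *Tnfrsf4* and *Icos*, were higher in all 6 mice, as 3.61% of all probe sets were.

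**Figure D3:**
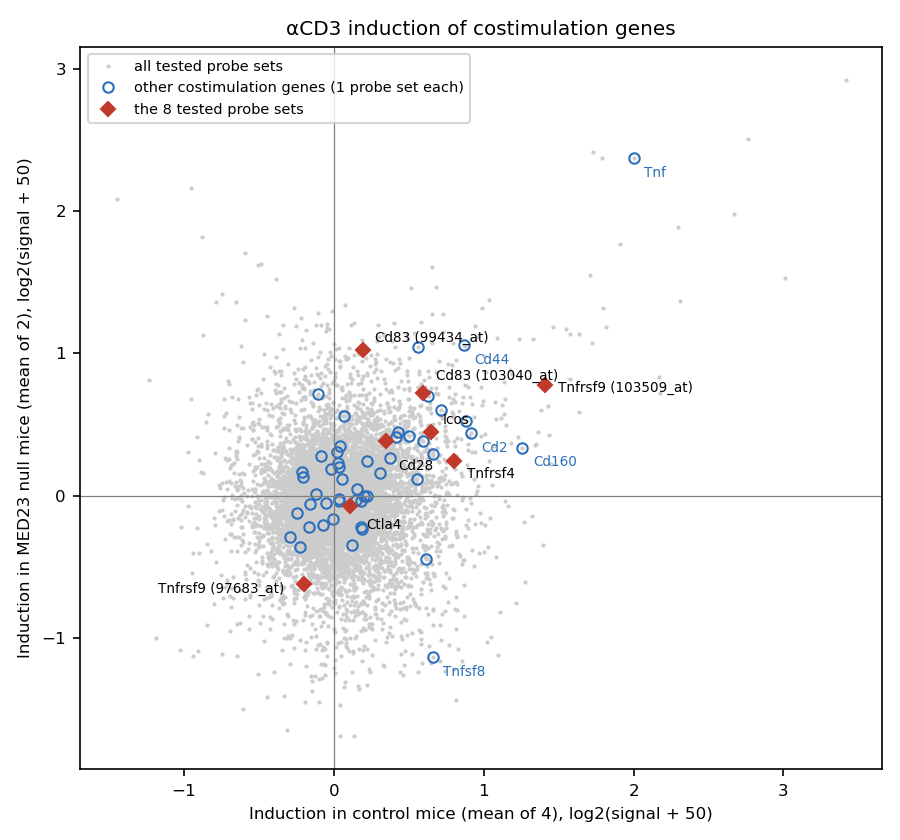
Log2 induction by αCD3 in control mice (horizontal, mean of 4) and in MED23 null mice (vertical, mean of 2), after 50 was added to each signal. Grey points are the 9478 tested probe sets, red diamonds the 8 of the group and blue circles the 49 other costimulation genes. *Tnfrsf9* 103509_at lies at 0.78 in null and 1.41 in control mice.

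Between MED23 null and control cells no probe set of the group was called, nor was any of the 9478 (0%), in induction, after αCD3 or after mock treatment. At an unadjusted p under 0.05, 1 of 8 (486 of 9478, 5.13%) differed in induction, 3 of 8 (584, 6.16%) after αCD3 and 2 of 8 (701, 7.4%) after mock treatment. The groups of mice did not overlap for 3 of 8 after αCD3, *Tnfrsf4*, *Icos* and *Tnfrsf9* 103509_at, all lower in null cells, against 8.61% of all probe sets. None was higher, against 6.9% of all probe sets. After mock treatment 2 of 8 were lower without overlap, *Tnfrsf4* and *Icos* (8.44% of all probe sets), and 1 was higher, *Ctla4* (9.27%). In induction *Tnfrsf9* 103509_at alone was lower without overlap (7.42%) and none was higher (6.06%). The median difference of the 8 was -0.19 in induction, -0.12 after αCD3 and -0.16 after mock treatment, against -0.02, -0.01 and 0.01 over all probe sets.

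The control genotypes were also taken apart. After αCD3, 4 of 8 probe sets were lower in null than in *Lck-Cre* mice without overlap (18.5% of all probe sets), which are *Tnfrsf4*, *Icos*, *Tnfrsf9* 103509_at and *Cd28*, and none was higher (17.8%). Against *Med23flox/flox* mice 3 were lower (20.2%), the same without *Cd28*, and *Cd83* 99434_at was higher (16.2%). After mock treatment 3 were lower than in *Lck-Cre* mice (18.6%), *Tnfrsf4*, *Icos* and *Cd28*, and 2 were lower than in *Med23flox/flox* mice (17.8%), *Tnfrsf4* and *Icos*, while *Ctla4* was higher than in both (19.8% and 19.6%). In induction *Tnfrsf9* 103509_at was lower than in *Lck-Cre* mice (17.1%), and it and *Tnfrsf4* were lower than in *Med23flox/flox* mice (19.9%), while none was higher (15.8% and 15.9%). None of the 6 comparisons with a single control genotype called a probe set, of the group or of all (0%). At an unadjusted p under 0.05, *Tnfrsf4* and *Icos* differed from each genotype after αCD3, and in mock-treated cells *Icos* differed from each and *Tnfrsf4* from *Lck-Cre*. Over all probe sets such differences from *Lck-Cre* numbered 409 (4.32%) in induction, 458 (4.83%) after αCD3 and 692 (7.3%) after mock treatment, and those from *Med23flox/flox* 607 (6.4%), 732 (7.72%) and 696 (7.34%). The comparisons share the null mice, so they are not independent of each other.

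**Figure D4:**
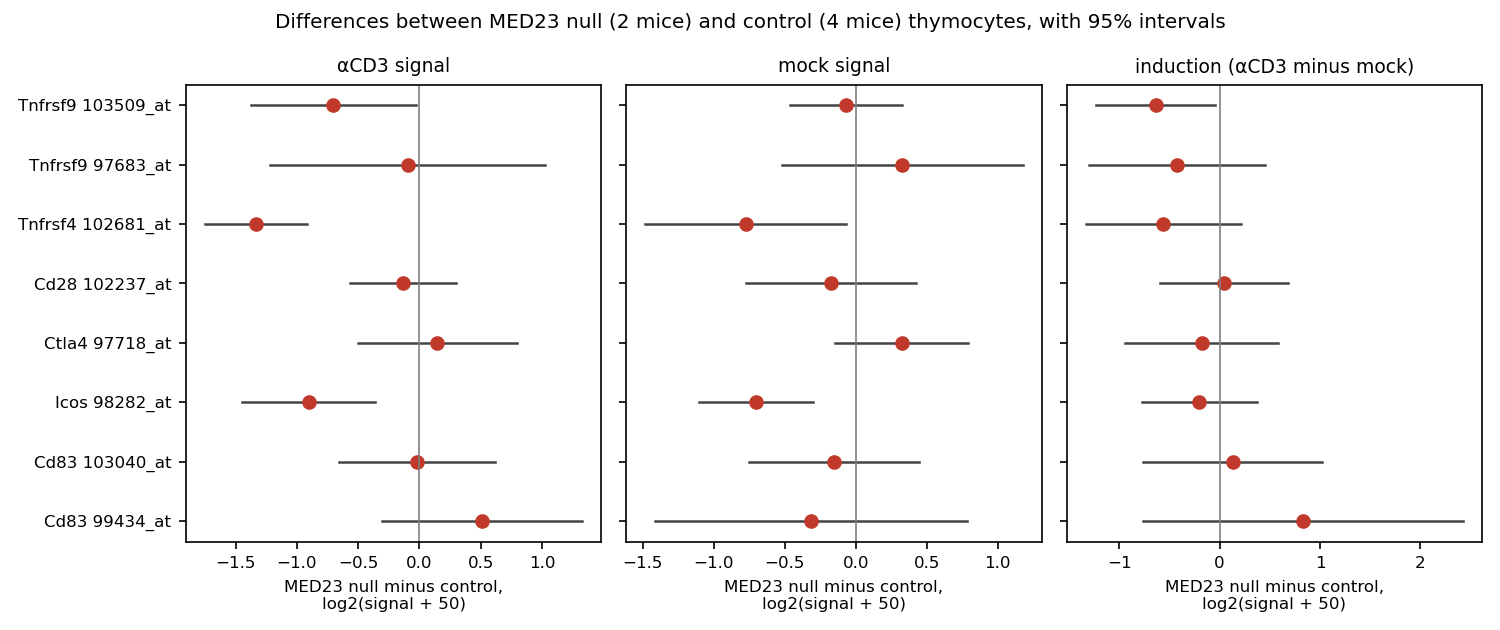
Log2 difference between 2 MED23 null and 4 control mice for the 8 tested probe sets, with points for the estimate and lines for its 95% interval, after αCD3 (left), after mock treatment (middle) and in induction (right), on the log2(signal + 50) scale. The intervals of *Tnfrsf4* and *Icos* lie below 0 in the αCD3 and mock panels, though neither passed adjustment over all probe sets.

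The rest of the pathway was read from 7 lists of costimulation genes, of which 49 genes were tested, each by its brightest probe set. None was called in any of the 5 pooled comparisons. At an unadjusted p under 0.05, 7 were higher and 1 lower after αCD3 in null cells, and 10 were higher and none lower in control cells, with a median log2 induction of 0.16 in each, where 5.36% and 7.78% of all probe sets passed and the medians were -0.02 and 0.00. Between null and control cells the unadjusted counts were 0 higher and 2 lower after αCD3, 1 higher and 2 lower after mock treatment, and 0 higher and 1 lower in induction, where 6.16%, 7.4% and 5.13% of all probe sets passed. Of the 49, 16 had a log2 difference above 0 after αCD3 and 22 after mock treatment, with medians of -0.09 and -0.05, and the median difference in induction was -0.06. The medians over all probe sets were -0.01, 0.01 and -0.02.

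Among ligands of the TNF family, *Tnf*, the founding cytokine of the family, gave 573 and 309.9 after αCD3 and 48.2 and 34.9 after mock treatment in MED23 null mice. In controls it gave 626, 511, 294 and 563 after αCD3 and 245, 49.9, 59.0 and 46.7 after mock treatment. Its log2 induction was 2.37 in null and 2.00 in control cells (limma, adjusted p = 0.393 and 0.0603), the largest of the 49 genes in control cells and the difference of 0.37 was not called (standard error 0.46, adjusted p = 1.00). *Tnfsf8*, the ligand of CD30, gave 43.8 and 28.0 after αCD3 and 128 and 149.5 after mock treatment in null mice, against 79.8, 101.4, 179.5 and 52.6 after αCD3 and 27.7, 81.9, 31.7 and 39.1 after mock treatment in controls. It was lower after αCD3 in both null mice and higher in all 4 controls, with a difference in induction of -1.80 (standard error 0.41, limma, adjusted p = 0.809). *Tnfsf8* passed the filter only through mock-treated null mice and *Med23flox/flox* mice after αCD3, where it was high, so this pattern is a description. Of all probe sets, 7.42% were lower in induction in null mice without overlap. *Fasl*, the death ligand, differed by -0.82 after αCD3 (limma, adjusted p = 0.903). It passed the filter only through control groups, so this difference is a description too. Its αCD3 signals overlapped, with 31.8 and 63.8 in null mice and 45.3 in *Lck-Cre* replicate 2.

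Of receptors of the TNF receptor superfamily, *Tnfrsf1b* had an induction of 0.41 in both null and control cells, *Cd27* of 0.16 and 0.31 and *Cd40* of -0.29 in both. *Tnfrsf8*, which encodes CD30, differed between null and control cells by 0.51 after αCD3 (limma, adjusted p = 0.903). Their TRAF pathway included *Birc3*, an inhibitor of apoptosis that binds TRAF proteins, which gave 511 and 571 after αCD3 and 373 and 349 after mock treatment in null mice, against 651 to 809 and 294 to 512 in controls. Every control was above both null mice after αCD3, a position shared by 8.61% of all probe sets. *Birc3* was named for its large values within its list. Its induction was 0.52 in null and 0.88 in control cells (limma, adjusted p = 0.853 and 0.0836). *Traf1* had inductions of 0.26 and 0.38.

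Of the B7 ligands of CD28 and CTLA-4, *Cd80* had a log2 induction of 0.29 in null and 0.66 in control cells and *Cd86* of 0.70 and 0.63. The inhibitory receptors *Pdcd1*, which encodes PD-1, and *Cd160* had inductions of 0.61 and 0.34 in null and 0.72 and 1.26 in control cells (limma, adjusted p = 0.851 and 0.999 in null, 0.210 and 0.293 in control cells). *Cd160* passed the filter only through groups after αCD3, so its induction is a description. Its highest signal, 314, came from *Med23flox/flox* replicate 1 after αCD3, the array that stood apart. Of other activation molecules, *Cd44*, a hyaluronan receptor, had an induction of 1.06 in null and 0.87 in control cells (limma, adjusted p = 0.563 and 0.215). Its mock signals in null mice were only 13.3 and 15.1. *Cd44* passed the filter only through *Med23flox/flox* mice after αCD3, which include the array that stood apart. *Slc3a2*, a chain of amino acid transporters, had inductions of 0.42 in null and 0.50 in control cells.

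*Cd2*, an adhesion receptor of T cells, gave 703 and 826 after αCD3 and 552 and 545 after mock treatment in MED23 null mice, against 1441.9 to 1873 and 580.1 to 1107 in controls. It was lower in null mice without overlap in both treatments, with log2 differences of -1.07 and -0.59 (standard errors 0.20 and 0.25, limma, adjusted p = 0.493 and 0.670). Of all probe sets, 8.61% after αCD3 and 8.44% after mock treatment were lower without overlap. *Cd2* was named for its large values within its list, so its position is a description. Of its SLAM relatives, *Cd48* differed by -0.05 and *Ly9* by 0.52 after αCD3.

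*Cd2* was also the gene whose log2 signal ran most like that of *Tnfrsf4* over the 12 arrays (Pearson correlation 0.95), ahead of *Snx5* (0.91) and *Strbp* (0.91). For *Icos* the nearest genes were *Pkp4* (0.89), *Ddx54* (0.88) and *Prkch* (0.86), for *Cd28* *Ptk2b* (0.88), *Ice1* (0.86) and *Chst2* (0.84), and for *Ctla4* *Kif11* (0.92), *Sft2d1* (0.86) and *Stim1* (0.84). For *Tnfrsf9* 97683_at and *Cd83* 99434_at, each of a pair that did not run together, the nearest were *Kdm6a* (0.93) and *Igtp* (0.81), which holds for those probe sets and not for the genes. Both arrays of a mouse enter each of these values, which describe the likeness of the patterns only.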

How the data were processed

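Affymetrix mouse arrays of 12 thymocyte samples (6 mice, each mock and αCD3) were analysed. The authors reduced the probe intensity readings of each array with MAS5, as deposited, to 1 linear signal per probe set, an intensity value with no depth, and the number of arrays limits its precision. Every array was checked to share 1 scale, the mean after removal of 2% at each end, to within 0.00603%. The 66 control probe sets of the 12488 entered no test, and 10855 had 1 symbol, 396 several and 1237 none in the platform annotation (10839 of the 10855 matched by Entrez identifier to RefSeq names). Differences were fitted on log2(signal + 50) with limma 3.58.1 in R 4.3.3, on within-mouse differences for induction and per treatment for levels, with Benjamini-Hochberg adjustment over the 9478 probe sets kept. Groups came from the sample titles, and replicates were separate mice. The description code of the *Lck-Cre* replicate 2 αCD3 array is also that of the *Med23flox/flox* replicate 1 mock array, although their titles and values differ, so the labels do not fully settle these 2 arrays. Fits were also run on simulated arrays drawn without a mouse effect. No difference in induction between genotypes was planted there, so recovery of such a difference was not tested. The members, gene lists and tests were chosen with earlier results of these data known. Named genes were all members, *Med23*, up to 2 genes of each list by absolute induction in control cells and up to 2 by absolute αCD3 difference, and the 3 genes most like each member over the arrays. Pseudocounts, filters, scaling, blocks and left-out mice were varied.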

Additional observations from a re-analysis of the deposited data

Results flagged for a closer look

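Chance alone marks some groups of 4 controls as holding a far value, and 81 such groups were looked at. *Tnf* after mock treatment was marked because *Lck-Cre* replicate 1 gave 244.8, far above the other controls at 46.7 to 59.0. *Birc3* was marked because *Med23flox/flox* replicate 2 had an αCD3 to mock ratio of 1.541, below the other controls.

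*Tnfsf8* was marked because both MED23 null mice were lower after αCD3 (mean ratio 0.265) and all controls were higher (mean ratio 2.78, with 2.06 in *Lck-Cre* and 3.50 in *Med23flox/flox*). The difference in induction was -1.80 (standard error 0.41, limma, adjusted p = 0.809), for a probe set that passed the filter only through groups where it was high. *Cd48*, an adhesion molecule of the SLAM family, moved the opposite way, with a mean ratio of 1.13 in null and 0.863 in control mice (0.905 in *Lck-Cre* and 0.820 in *Med23flox/flox*), and a difference of 0.38 (standard error 0.22, limma, adjusted p = 1.00). Its mock signals were 903 and 872 in null mice, against 1098 to 1382 in controls (log2 difference -0.43, limma, adjusted p = 0.617). After αCD3 the log2 difference was -0.05, so the levels differed mainly in mock-treated cells. Of all probe sets, 6.06% were higher in induction in null mice without overlap. *Cd40lg* was lower after αCD3 in both null mice (mean ratio 0.311) and higher in both *Med23flox/flox* mice (mean ratio 4.76), with a difference of -1.01 (limma without the filter, adjusted p = 0.736) at signals below 100. None of these differences passed the test.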

How the results depend on the processing

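Of 828 single probe set values recomputed under other settings, 791 kept their direction and their side of the threshold, 29 changed sign, 8 lost the call and 0 gained one. All 8 lost calls were the induction of *Tnfrsf9* 103509_at in control cells, with quantile normalization (1.31, adjusted p = 0.0715, limma throughout), with a variance trend (1.41, adjusted p = 0.147) and without each of the 6 mice, null mice included (1.33 to 1.51). Its size moved to 2.14 with a pseudocount of 16 and 0.97 with 100, and a filter of 200 excluded it. Costimulatory probe sets called in control induction then numbered 0 with the filter of 200, quantile normalization, the variance trend or any mouse left out.

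Over all probe sets, calls in control induction numbered 27 with a pseudocount of 100, 33 with the filter of 200, 4 with the variance trend, 50 with the mouse as a random block, 35 in the joint fit with no replicate block, and 3 to 9 without a mouse. Calls in null induction numbered 1 with a pseudocount of 16, no filter, quantile normalization or the variance trend, 0 in both joint fits, and 0 to 1 without a mouse. Between null and control cells, mock signals gave 1 call with the filter of 200 and 2 with the variance trend, and αCD3 signals gave 5 with the variance trend. The cause of these changes was not tested.

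Under quantile normalization the αCD3 difference became 0.021 for *Cd83* 103040_at and 0.0097 for *Tnfrsf9* 97683_at, and the difference in induction became -0.033 for *Cd28*. Leaving out a mouse gave ranges across 0 for *Ctla4* induction in null (-0.52 to 0.38) and control cells (-0.01 to 0.20) and for *Cd83* 99434_at induction in control cells (-0.10 to 0.61). The difference in induction ran from -0.15 to 0.23 for *Cd28*, -0.25 to 0.51 for *Cd83* 103040_at, -0.63 to 0.27 for *Ctla4* and -0.41 to 0.013 for *Icos*. The mock difference ran from -0.38 to 0.026 for *Cd28*, -0.34 to 0.037 and -0.76 to 0.13 for *Cd83* 103040_at and 99434_at, and -0.12 to 0.0085 and -0.13 to 0.79 for *Tnfrsf9* 103509_at and 97683_at. The αCD3 difference ran from -0.21 to 0.17 for *Cd83* 103040_at, -0.73 to 0.54 for *Tnfrsf9* 97683_at and -0.15 to 0.44 for *Ctla4*. Against single genotypes, induction ran from -0.72 to 0.037 for *Tnfrsf4* (*Lck-Cre*) and -0.40 to 0.029 for *Icos* (*Med23flox/flox*), and the mock difference of *Tnfrsf9* 103509_at from -0.12 to 0.066 (*Lck-Cre*) and -0.30 to 0.078 (*Med23flox/flox*).

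Counts of costimulatory probe sets without overlap ran, without a mouse, from 1 to 3 lower and 0 to 2 higher in induction, 2 lower and 1 to 2 higher after mock treatment, and 3 to 4 lower and 0 to 1 higher after αCD3. Those higher in every mouse ran from 6 to 7 in null and 3 to 5 in control cells.

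Same-numbered mice of different genotypes shared only a number in the labels, with correlations of their deviations of -0.011 to 0.116. For the mock and αCD3 arrays of a mouse these correlations were 0.061 to 0.149, an overlapping range. The pairing within a mouse therefore rests on the labels. With the replicate number as a block, 0 probe sets were called between null and control cells, and *Tnfrsf4* after αCD3 stayed at -1.33 (adjusted p = 0.583). Only 2 null mice and, for *Tnfrsf9* 103509_at and *Cd40lg*, mock signals far under 100 limit what these values can show.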
